A study of Homo sapiens with 12 samples.

Results

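The genes carried by human mitochondrial DNA were examined in MiaPaCa-2 cells, a long-established line from a human pancreatic carcinoma, with each of 3 genes of citrate handling knocked down. They were taken as every row of the count table whose symbol starts with MT-, which gave 37 of 70116 genes: 13 that encode proteins, 2 that encode ribosomal RNAs (rRNAs) and 22 that encode transfer RNAs (tRNAs). Copies of these genes in nuclear chromosomes were not counted among them. The cells had been transfected with small interfering RNAs, which direct the degradation of a matching transcript, in 4 groups of 3 libraries: siControl, siSLC25A1, siACLY and siACO1. SLC25A1 is the mitochondrial citrate carrier, ACLY cuts citrate in the cytosol to make acetyl-CoA, and ACO1 is the aconitase of the cytosol, which doubles as an iron-regulatory RNA-binding protein. Per the series title, the study asked how cytosolic citrate relates to ferroptosis, a cell death driven by lipid peroxidation, when nutrients are short. The labels give neither the nutrient condition, the time after transfection nor the siRNA sequences, and they do not say whether replicates were separate cultures, so the p-values measure only the spread between these libraries, which may be technical.

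Library totals ran from 24159424 to 43792811 counts. The targeted transcript was at 8.75% of control in siSLC25A1, at 7.24% in siACLY and at 3.72% in siACO1. The markers KRT8, KRT18 and VIM of the line were present in all 12 libraries, KRT8 at 1263 to 2436 CPM (counts scaled for library size), and the leukocyte markers PTPRC and CD3E, the acinar markers PRSS1 and CPA1 and the islet markers INS and GCG had 0 counts in all. The leukocyte marker CD68 had at most 6 counts in a library. Endothelial PECAM1 and CDH5 had at most 7 and 4, and fibroblast COL1A1 and DCN at most 9 and 2. A single library, siACO1 replicate 3, stood apart from its group, scoring 27.1 on the fourth principal component where its replicates scored -15.1 and -10.7.

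Mitochondrial DNA is a small circle without introns. A single nuclear-encoded polymerase, POLRMT, copies each strand from its own promoter into long precursors, and enzymes cut the tRNAs out of these, which frees the rRNAs and messengers between them. Because genes on a strand leave the promoter together, the level of each messenger also depends on how it is processed, protected and degraded. The 13 proteins are core subunits of the respiratory chain: 7 belong to complex I, 1 to complex III, 3 to complex IV and 2 to complex V, the ATP synthase. In the annotation used here (GENCODE release 29 on GRCh38), 28 of the 37 genes are read from the heavy-strand promoter and 9, namely MT-ND6 and 8 tRNAs, from the light-strand promoter.

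The libraries were made from RNA captured on oligo-dT beads, so the tails of these transcripts bear on what was counted. In several mitochondrial messengers the short poly(A) tail also completes the stop codon, which the gene itself does not hold. The ends of all 13 protein-coding genes are shown because they differ in how much of the stop codon the gene holds. Each is the last 24 bases of the annotated transcript, 5′ to 3′, with the final codon, or the incomplete stop, in capitals.
MT-ND1: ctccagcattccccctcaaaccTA
MT-ND2: ccccttttatactaataatcttaT
MT-ND3: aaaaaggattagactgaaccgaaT
MT-ND4: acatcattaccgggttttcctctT
MT-CYB: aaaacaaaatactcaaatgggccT
MT-CO3: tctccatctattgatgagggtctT
MT-ND4L: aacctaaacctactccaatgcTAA
MT-ND5: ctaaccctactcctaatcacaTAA
MT-ATP6: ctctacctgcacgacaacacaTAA
MT-CO2: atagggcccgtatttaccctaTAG
MT-ATP8: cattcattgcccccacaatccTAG
MT-CO1: gaacccgtatacataaaatctAGA
MT-ND6: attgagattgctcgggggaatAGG
In 6 of the 13 the gene ends inside the stop codon, 5 of them after a single T and MT-ND1 after TA. Of the other 7, 5 end in TAA or TAG and 2, MT-CO1 and MT-ND6, in AGA or AGG. These letters are those of the annotation, not of the cells sequenced.

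A pair of neighbouring genes lies on 1 shared messenger in each of 2 places. Each of the 13 protein-coding genes is nevertheless called a messenger below. MT-ATP8 (chrM:8366-8572, plus strand) and MT-ATP6 (chrM:8527-9207, plus strand), both subunits of ATP synthase, share 46 bases, and MT-ND4L (chrM:10470-10766, plus strand) and MT-ND4 (chrM:10760-12137, plus strand), both subunits of complex I, share 7. The start codon of the downstream gene and the stop codon of the upstream gene are in capitals in the lines below, the first of which is the 46-base overlap at chrM:8527-8572 and the second the first 24 bases of MT-ND4 at chrM:10760-10783.
MT-ATP8 with MT-ATP6: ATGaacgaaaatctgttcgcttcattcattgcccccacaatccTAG
MT-ND4L with MT-ND4: ATGCTAAaactaatcgtcccaaca
In the second line all 7 shared bases are in capitals. There a C, part of neither codon, lies between the start codon of MT-ND4 and the stop codon of MT-ND4L. Reads in the shared bases belong to either gene, and among these genes MT-ATP8 shares the largest part of its length, 46 of 207 bases.

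Copies of mitochondrial genes in the nuclear genome add to this uncertainty. Of the 15 rRNA and protein-coding members, 10 had at least 20% of their 31-base stretches also present in annotated nuclear transcripts, so their counts could be split by the authors' counting. The share was 66.7% for MT-CO1, 62.8% for MT-ATP6, 56.9% for MT-ND2, 50.5% for MT-CO2, 45.0% for MT-CO3 and 41.2% for MT-ATP8. It was lower for MT-RNR2 (31.7%), MT-ND6 (30.7%), MT-ND1 (28.2%) and MT-ND4 (21.2%), all of which are likewise uncertain. MT-RNR1 (0%), MT-ND3 (3.48%), MT-CYB (4.95%), MT-ND5 (15.1%) and MT-ND4L (16.1%) fell under that limit. No tRNA shared such a stretch with an annotated nuclear transcript. Nuclear DNA outside annotated transcripts was not searched, so copies there, those of tRNAs included, could not be seen. Whether counting used the strand is not given in the sources used here, so counts of MT-ND6 and of the other light-strand genes cannot be told apart from reads of the opposite strand.

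Levels in siControl were compared per length, as CPM per kilobase of gene. MT-CO2 at 9042 ± 314 (SD, n = 3) and MT-CO1 at 8995 ± 274 CPM per kb were the highest of the 37 genes. They are 2 of the 3 messengers of complex IV, and their libraries overlapped. MT-CO3, the remaining complex IV subunit, followed at 7821 ± 239 CPM per kb with no overlap. Next came MT-ND4 (6959 ± 221), MT-ATP6 (6673 ± 445) and MT-RNR2, the large rRNA (6252 ± 171), of which each overlapped its neighbour. MT-ND4L (4388 ± 90.8), MT-ND1 (4193 ± 111), MT-ND2 (2754 ± 84.5), MT-CYB, the complex III subunit (2467 ± 109), and MT-ND3 (1916 ± 63.4) then each stood apart from the gene below, all in CPM per kb. MT-ND5 (1750 ± 95.9) and MT-ND6 (1624 ± 91.8) overlapped. MT-RNR1, the small rRNA, was at 905 ± 44.8 CPM per kb, and MT-ATP8, at 559 ± 87.8, was the lowest protein-coding gene. It shares a messenger with MT-ATP6, so the gap between these genes is not a difference between messengers. Why their counts differ was not tested.

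**Figure D1:**
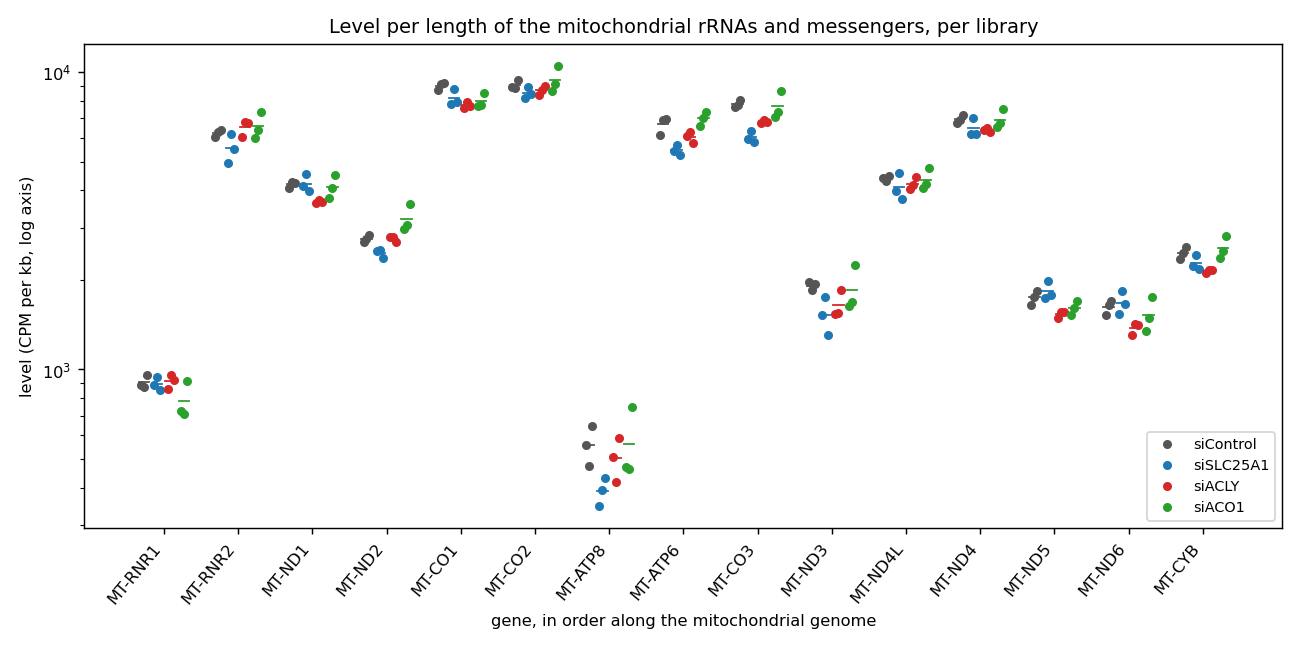
Level of the 2 rRNAs and 13 messengers in each of the 12 libraries, in CPM per kilobase on a log axis, in order along the mitochondrial genome; points are libraries and short lines are group means. MT-CO2 and MT-CO1 were the highest and MT-ATP8, which shares a messenger with MT-ATP6, the lowest by counts. The right-most green point of each gene, siACO1 replicate 3, was the highest of its group in all 15.

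The order along the genome did not match the order of the levels. MT-RNR1 and MT-RNR2 are adjacent to the heavy-strand promoter and are copied first, yet MT-RNR2 stood 6th and MT-RNR1 15th of the 37 genes. Capture by poly(A) tail can count the rRNAs, tRNAs and MT-ND6 with another efficiency than the other messengers, so levels between these kinds of RNA are not levels in the cell.

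Mitochondrial DNA genes together took 6.36% to 6.75% of all counts in siControl libraries, 5.71% to 6.43% in siSLC25A1, 6.11% to 6.38% in siACLY and 6.36% to 7.22% in siACO1. The mean share was 6.58% ± 0.197 (SD, n = 3), 5.99% ± 0.383, 6.25% ± 0.137 and 6.73% ± 0.443, and every knockdown overlapped siControl. The 13 messengers alone took 5.33%, 5.55% and 5.66% in siControl replicates 1 to 3, and 5.04%, 5.19% and 5.08% in siACLY, so the siACLY libraries all lay below the controls. In siSLC25A1 the messenger share was 4.85%, 5.36% and 4.88%, with replicate 2 inside the range of the controls. The siACO1 shares of 5.30%, 5.49% and 5.97% spanned the controls on either side. The 2 rRNAs took a mean of 1.04% ± 0.0272 in siControl, 0.938% ± 0.0994 in siSLC25A1, 1.12% ± 0.0693 in siACLY and 1.12% ± 0.0983 in siACO1, and the 22 tRNAs between 0.0213% and 0.0290% in any library. Fewer mitochondrial transcripts in each cell and more of other RNA cannot be told apart in such shares.

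**Figure D2:**
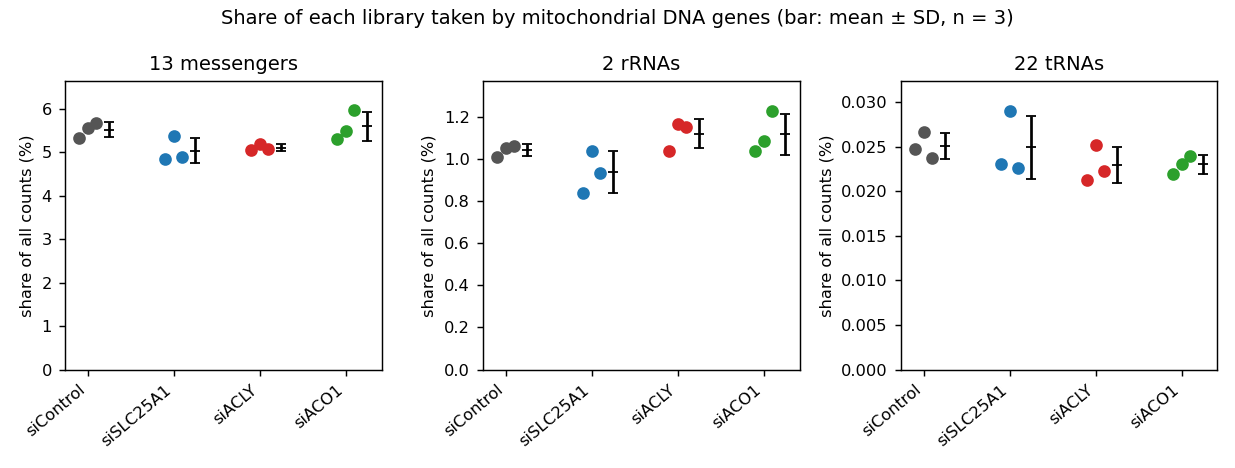
Share of all counts of a library, in percent, taken by the 13 messengers, the 2 rRNAs and the 22 tRNAs; points are the 3 libraries of each group and bars show mean ± SD (n = 3). The siACLY messenger shares of 5.04% to 5.19% lay below the siControl shares of 5.33% to 5.66%, while the other groups overlapped siControl.

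Each group was then compared with siControl, gene by gene, in a model of the raw counts that allowed for scaling between libraries. Levels and the overlap of libraries are given in CPM scaled between libraries. Of the 37 genes, 34 passed the filter on low counts: all 13 messengers, both rRNAs and 19 of the 22 tRNAs. MT-TF, MT-TW and MT-TS2 did not pass and had at most 10, 12 and 8 counts in a library. Changes were small: for messengers and rRNAs the log2 fold change largest in size against siControl was -0.51, and the largest past the threshold was -0.37. A gene is called higher or lower where its adjusted p is under 0.05.

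Knockdown of SLC25A1 lowered 4 messengers. MT-CO3 and MT-ATP6, which lie next to each other, fell most among the called messengers, MT-ND2 and MT-CO1 fell less, and MT-ND1, MT-ND5 and MT-ND6 were close to control. Of the 34 tested genes 6 were called (1 higher and 5 lower), beside 19.6% of all 16197 tested genes, so the share of 17.6% was near the background. Among all tested genes 10.3% were higher and 9.27% lower. Of the 13 messengers 4 were lower and 0 higher, and their median log2 fold change was -0.12 against -0.004 for all tested genes. The siSLC25A1 libraries lay all above the controls for 1 of the 34 genes and all below for 7, which was so for 18.4% and 18.7% of all tested genes.

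MT-CO3 (chrM:9207-9990, plus strand), a catalytic-core subunit of cytochrome c oxidase, was at 5969, 6090 and 6337 CPM in siControl and at 4678, 4986 and 4552 CPM in siSLC25A1. All 3 knockdown libraries lay below the controls, and the log2 fold change was -0.37 (SE 0.05, adjusted p 2.62e-05). MT-ATP6, which forms part of the proton channel of ATP synthase, was at 4195, 4693 and 4744 CPM in siControl and at 3703, 3874 and 3590 CPM in siSLC25A1 (log2 fold change -0.29, SE 0.05, adjusted p 6.26e-05). These libraries again did not overlap. MT-ATP8, on the same messenger, was at 115, 97.8 and 134 CPM in siControl and at 71.8, 81.6 and 89.6 CPM in siSLC25A1. The groups did not overlap there either, but with a log2 fold change of -0.51 and an SE of 0.22 it did not pass the test (adjusted p 0.158).

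MT-ND2 (chrM:4470-5511, plus strand), a membrane subunit of complex I, was at 2787, 2859 and 2962 CPM in siControl and at 2612, 2625 and 2466 CPM in siSLC25A1, all below (log2 fold change -0.16, SE 0.05, adjusted p 0.0315). MT-CO1 (chrM:5904-7445, plus strand), which holds the oxygen-reducing centre of complex IV, was at 13389, 14039 and 14181 CPM in siControl and at 12018, 13549 and 12276 CPM in siSLC25A1. There replicate 2 of the knockdown lay inside the control range, and the log2 fold change was -0.14 (SE 0.05, adjusted p 0.0377). Neither call was firm. MT-ND2 no longer passed when siControl replicate 2 or 3, or any of the siSLC25A1 replicates 1, 2 and 3, was left out (adjusted p up to 0.152), and neither did MT-CO1 when siControl replicate 2 or 3, siSLC25A1 replicate 1 or 3, or any siACLY library was (adjusted p up to 0.166).

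The other messengers and both rRNAs did not pass the test in siSLC25A1, and the 2 called tRNAs, MT-TG and MT-TP, are described with the tRNAs. Log2 fold changes were -0.33 for MT-ND3 (adjusted p 0.177), -0.12 for MT-CYB (0.115), -0.11 for MT-ND4 (0.143), -0.10 for MT-ND4L and -0.09 for MT-CO2. MT-ND1, MT-ND5 and MT-ND6 had positive values of 0.01, 0.07 and 0.05. The large rRNA was at 9447, 9832 and 9961 CPM in siControl and at 7711, 9652 and 8620 CPM in siSLC25A1 (log2 fold change -0.17, adjusted p 0.220), and the small rRNA, MT-RNR1, differed by -0.02. Replicate 2 of siSLC25A1 was the highest library of its group for 14 of the 15 rRNAs and messengers. Without it 8 mitochondrial genes were called, all lower, among them MT-RNR2 (log2 fold change -0.26, adjusted p 0.0325), MT-ND4L (-0.18, adjusted p 0.0274), MT-ND4 (-0.17, adjusted p 0.0259) and MT-CYB (-0.16, adjusted p 0.0432). Without siSLC25A1 replicate 3 the number called was 3. Leaving out siACO1 replicate 3, which lies outside this comparison, gave 9 mitochondrial genes, and 4131 of all genes were called in place of 3173. MT-ND4 (adjusted p 0.0278), MT-CYB (0.0107) and MT-CO2 (0.0498) were then also called, all lower.

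Knockdown of ACLY lowered 6 of the 13 messengers, and 0 mitochondrial genes passed the test as higher. MT-CO1, MT-CYB, MT-CO3, MT-ND1 and MT-ND5 fell with log2 fold changes between -0.22 and -0.19, and MT-ATP6 fell by 0.14. Of the 34 tested genes 8 were lower, beside 36.7% of all tested genes called in either direction, 18.4% higher and 18.3% lower. The siACLY libraries lay all below the controls for 9 of the 34 and all above for 0, against 25% and 25.5% of all tested genes. Of the messengers 6 of 13 were lower, all 13 had a negative log2 fold change, and the median was -0.19 against 0.008 for all tested genes. The rRNAs had positive values that did not pass the test, 0.01 for MT-RNR1 and 0.06 for MT-RNR2.

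MT-CO1 was at 11673, 12253 and 11818 CPM in siACLY, all below the controls given above (log2 fold change -0.22, SE 0.05, adjusted p 0.00044). MT-CO3 was at 5304, 5403 and 5340 CPM, all below (log2 fold change -0.20, SE 0.05, adjusted p 0.00655). MT-CYB (chrM:14747-15887, plus strand), the cytochrome b of complex III, was at 2695, 2805 and 2944 CPM in siControl and at 2404, 2460 and 2459 CPM in siACLY. All 3 siACLY libraries lay below, and the log2 fold change was -0.21 (SE 0.05, adjusted p 0.00247).

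Of the complex I subunits, MT-ND1 (chrM:3307-4262, plus strand) was at 3887, 4080 and 4060 CPM in siControl and at 3459, 3550 and 3496 CPM in siACLY (log2 fold change -0.20, adjusted p 0.00464). MT-ND5 (chrM:12337-14148, plus strand), a subunit of the proton-pumping membrane arm, was at 2991, 3187 and 3337 CPM in siControl and at 2697, 2836 and 2830 CPM in siACLY (log2 fold change -0.19, adjusted p 0.00435). Neither gene overlapped between the groups. MT-ND6 (chrM:14149-14673, minus strand), the only messenger read from the light-strand promoter, was at 800.1, 863 and 895 CPM in siControl and at 685, 748 and 739 CPM in siACLY. Its libraries also lay all below the controls, but the log2 fold change of -0.24 did not pass the test (adjusted p 0.0856). MT-ND2, which was lower in siSLC25A1, had a log2 fold change of -0.00 in siACLY, with 2905, 2902 and 2794 CPM. MT-ND4 (-0.12, adjusted p 0.0595) did not pass either, but its siACLY libraries lay all below the controls. MT-ND4 and MT-ND6 were each called in 5 of 19 alternatives, among them leaving out siACO1 replicate 3 (adjusted p 0.0049 and 0.0323). MT-ND3 (-0.22, adjusted p 0.303), MT-ATP8 (-0.15), MT-CO2 and MT-ND4L (both -0.06) did not pass.

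MT-ATP6 was at 4149, 4276 and 3922 CPM in siACLY and overlapped the controls (log2 fold change -0.14, adjusted p 0.0209). That call was lost with scaling by library totals and without siControl replicate 2 or 3 or siACLY replicate 3, with adjusted p up to 0.116.

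Knockdown of ACO1 moved 2 messengers in opposite directions. MT-ND2 was higher and MT-CO1 lower, and the median log2 fold change over the 13 messengers was -0.01, beside 0.006 for all tested genes. Of the 34 tested mitochondrial genes 3 were called (1 higher and 2 lower), or 8.82%, against 37.1% of all tested genes, 17.8% higher and 19.3% lower. The siACO1 libraries lay all above the controls for 2 of the 34 and all below for 3, against 22.9% and 23.4% of all tested genes.

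MT-ND2 was at 3096, 3184 and 3742 CPM in siACO1, above all controls (2787, 2859 and 2962 CPM), with a log2 fold change of 0.22 (SE 0.05, adjusted p 0.00162). MT-CO1 was at 11829, 11960 and 13105 CPM, below all controls (log2 fold change -0.17, SE 0.05, adjusted p 0.00394). Replicate 3 of siACO1, which the principal components set apart, was the highest of its group for all 15 rRNAs and messengers, and its part in these results was checked by leaving it out. Without it 6 mitochondrial genes were called, the 3 above among them and 5 of the 6 lower. MT-ND2 then had a log2 fold change of 0.13 (adjusted p 0.00266) and MT-CO1 -0.22 (adjusted p 1.41e-05). MT-RNR1, at 691, 674 and 870 CPM in siACO1 against 848, 831 and 912 CPM in siControl, had a log2 fold change of -0.21 (adjusted p 0.0876) with that library and -0.34 (adjusted p 1.87e-06) without it. MT-CO3 had -0.03 with it and -0.12 (adjusted p 0.00446) without it, and MT-ND5 -0.12 (adjusted p 0.0559) with it and -0.16 (adjusted p 0.0277) without it. The remaining messengers lay between -0.09 (MT-ND6) and 0.07 (MT-ATP6).

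**Figure D3:**
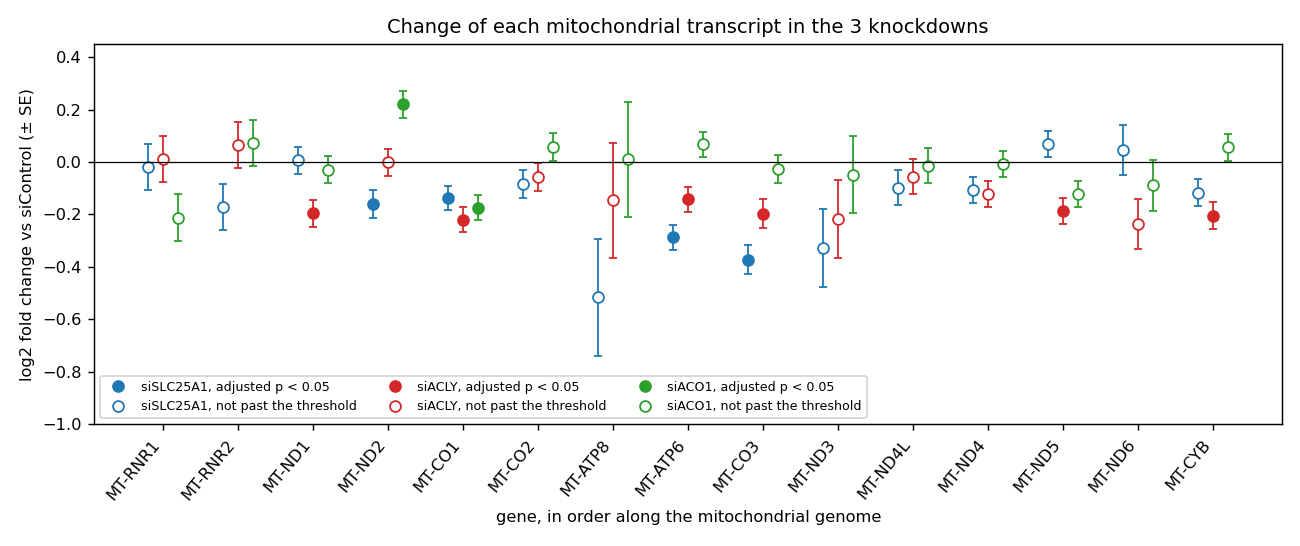
Log2 fold change of the 2 rRNAs and 13 messengers in each knockdown against siControl, in genome order, with bars of ± 1 SE; filled points passed an adjusted p of 0.05. The lowest filled point is MT-CO3 in siSLC25A1 (-0.37), and the only filled point above 0 is MT-ND2 in siACO1 (0.22).

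The 3 comparisons share their control libraries, so a common direction among them is not independent evidence. The knockdowns were therefore also compared with each other, which uses no control library as a term. MT-ND2 separated all 3 knockdowns: it was lower in siSLC25A1 than in siACLY (log2 fold change -0.16, adjusted p 0.0203), lower in siSLC25A1 than in siACO1 (-0.38, adjusted p 1.99e-06) and lower in siACLY than in siACO1 (-0.22, adjusted p 0.00131). The libraries did not overlap in any of these comparisons. MT-ATP6 and MT-CO3 had the same order, with log2 fold changes of -0.14 and -0.17 for siSLC25A1 against siACLY, -0.36 and -0.35 against siACO1, and -0.21 and -0.17 for siACLY against siACO1, each past the threshold. The calls between siSLC25A1 and siACLY were lost for all 3 genes when siSLC25A1 replicate 1 or 3 or siACLY replicate 2 was left out, and for MT-ND2 and MT-ATP6 also without siACLY replicate 1 (adjusted p up to 0.125 for MT-ND2, 0.144 for MT-ATP6 and 0.110 for MT-CO3). Between siACLY and siACO1, leaving out siACO1 replicate 3 gave -0.13 for MT-ND2 (adjusted p 0.00134) and -0.08 for MT-CO3, which was then not called (adjusted p 0.0571). Against siACO1, the siSLC25A1 calls of MT-ND2, MT-ATP6 and MT-CO3 held in all 19 alternatives.

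MT-ND5 ran in another order, being higher in siSLC25A1 than in siACLY (log2 fold change 0.25, adjusted p 0.000236) and than in siACO1 (0.19, adjusted p 0.00297). MT-ND1 was lower in siACLY than in siSLC25A1 and siACO1, with log2 fold changes of 0.20 (siSLC25A1 against siACLY, adjusted p 0.00387) and -0.17 (siACLY against siACO1, adjusted p 0.0122, and -0.10 with adjusted p 0.0540 without siACO1 replicate 3), and MT-CYB was lower in siACLY than in siACO1 (-0.26, adjusted p 0.000168). MT-ND6 was higher in siSLC25A1 than in siACLY (0.28, adjusted p 0.0482), a call that was lost in 8 alternatives: with library totals and without siControl replicate 2, siSLC25A1 replicate 2 or 3, siACO1 replicate 2 or any siACLY library. In all, 10 of the 34 mitochondrial genes were called between siSLC25A1 and siACLY (7 higher and 3 lower), against 33.8% of all tested genes (17.5% higher and 16.3% lower). Between siSLC25A1 and siACO1 11 were called (2 higher and 9 lower), against 42.1% (21.8% higher and 20.3% lower), and between siACLY and siACO1 7 were called, all lower, against 42.1% (21.4% higher and 20.7% lower). Libraries that did not overlap were found, above and below, for 8 and 4 of the 34 genes between siSLC25A1 and siACLY (23.4% and 23% of all tested genes), for 3 and 7 between siSLC25A1 and siACO1 (24.1% and 23.9%), and for 0 and 8 between siACLY and siACO1 (25% and 24.1%). Without siSLC25A1 replicate 3 or siACLY replicate 1 the count called between siSLC25A1 and siACLY fell to 5, and without siACLY replicate 2 or 3 to 6. The count between siSLC25A1 and siACO1 fell to 7 without siSLC25A1 replicate 1 or 3.

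Ratios of 2 mitochondrial genes in the same library do not depend on scaling between libraries. They were chosen after the values were seen and are given as descriptions. The count of MT-CO3 over that of MT-ND5 was 2.00, 1.91 and 1.90 in siControl, 1.97, 1.91 and 1.89 in siACLY, and 2.01, 1.97 and 2.21 in siACO1. In siSLC25A1 it was 1.49, 1.38 and 1.41, below every other library. MT-ATP6 over MT-ND5 was likewise lowest in siSLC25A1, at 1.18, 1.07 and 1.11, against 1.40 to 1.47 in siControl and 1.39 to 1.54 in siACLY. In siACO1 it was 1.63 to 1.64, above every other library.

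MT-CO1 over MT-ND2 was 4.80, 4.91 and 4.79 in siControl and 4.60, 5.16 and 4.98 in siSLC25A1. It was 4.02, 4.22 and 4.23 in siACLY and 3.82, 3.76 and 3.50 in siACO1, so these groups lay below the others and apart from each other. MT-RNR2 over MT-RNR1 was 11.1, 11.8 and 10.9 in siControl and 11.5, 11.6 and 12.0 in siACLY. In siSLC25A1 it was 9.14, 10.7 and 10.6, below all controls. In siACO1 it was 13.6, 14.7 and 13.2, where all 3 libraries, replicate 3 included, lay above every other library. The 2 genes of the MT-ND4L and MT-ND4 messenger kept a ratio of 0.131 to 0.152 over all 12 libraries. MT-ND6 over MT-ND5, genes that lie next to each other on opposite strands, was 0.254 to 0.299, with the highest value in siACO1 replicate 3.

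**Figure D4:**
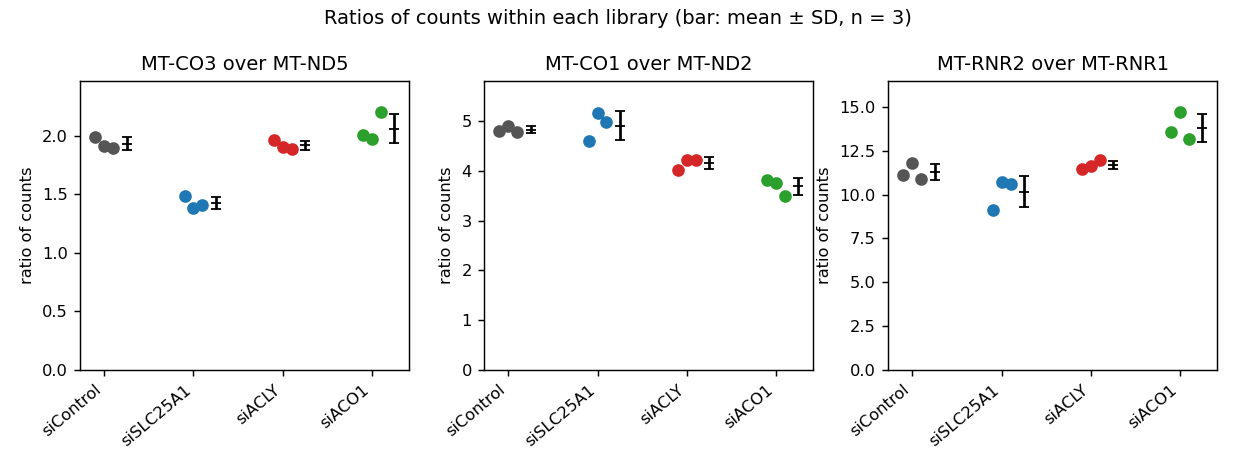
Ratio of the counts of 2 mitochondrial genes within each library; points are the 3 libraries of each group and bars show mean ± SD (n = 3). MT-CO3 over MT-ND5 was lowest in siSLC25A1 (1.38 to 1.49), MT-CO1 over MT-ND2 lowest in siACO1 (3.50 to 3.82), and MT-RNR2 over MT-RNR1 highest in siACO1 (13.2 to 14.7).

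The 22 tRNAs decode the 13 messengers within the organelle, and as whole molecules they carry no poly(A) tail. They are also short, at 59 to 75 bases, and took the small share of counts given above. What part capture and length had in their counts was not tested. Per length, the 8 tRNAs of the light-strand promoter had a median of 206 CPM per kb in siControl (2.37 to 1493), and the 14 of the heavy-strand promoter a median of 20.6 (2.53 to 222). MT-TC, the cysteine tRNA, was the highest at 1493 ± 96.8 CPM per kb (SD, n = 3), followed by MT-TP, the proline tRNA, at 744 ± 21.5. MT-TN (445 ± 61.0) and MT-TY (392 ± 48.7), for asparagine and tyrosine, came next and overlapped. All 4 are light-strand genes, whose counts could include reads of the heavy-strand precursor if counting did not use the strand.

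**Figure D5:**
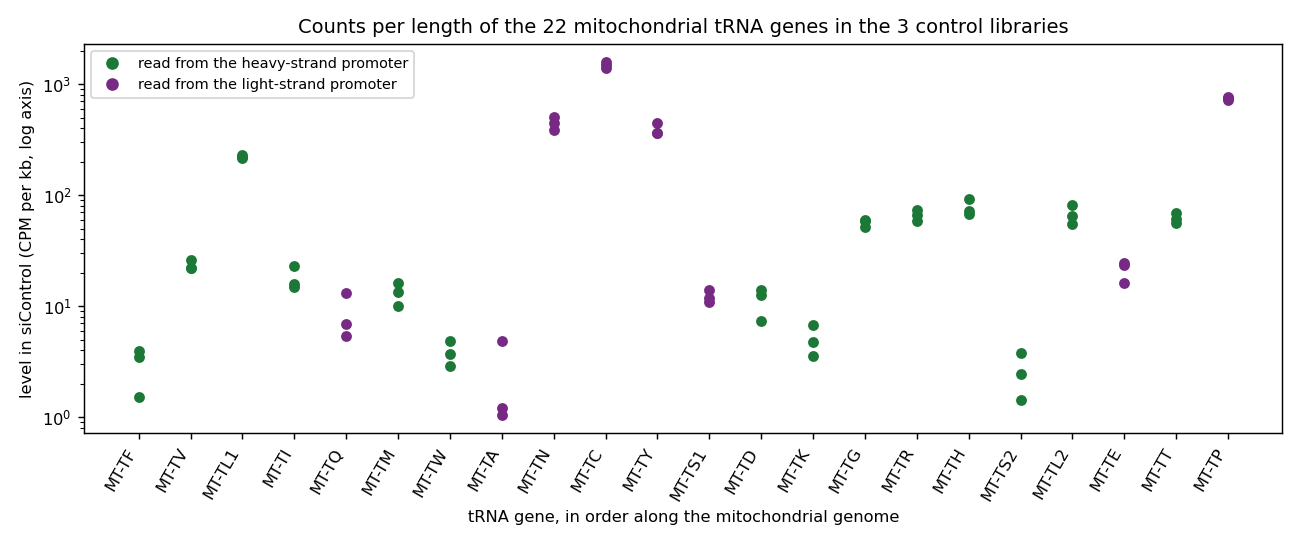
Level of the 22 tRNA genes in the 3 siControl libraries, in CPM per kilobase on a log axis and in genome order; each point is a library and the colour gives the promoter. The 4 highest, MT-TC, MT-TP, MT-TN and MT-TY, are light-strand genes.

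Of the 19 tested tRNAs 2 were called in siSLC25A1, 2 in siACLY and 1 in siACO1 (10.5%, 10.5% and 5.26%, against 19.6%, 36.7% and 37.1% of all tested genes), and these calls concern 3 genes. Their sequences are shown, whole, because they lie beside messengers described above: MT-TG (chrM:9991-10058, plus strand) directly follows MT-CO3, MT-TT (chrM:15888-15953, plus strand) directly follows MT-CYB, and MT-TP (chrM:15956-16023, minus strand) lies next to MT-TT on the other strand. The anticodon is in capitals.
MT-TG: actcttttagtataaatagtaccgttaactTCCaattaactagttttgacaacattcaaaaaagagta
MT-TT: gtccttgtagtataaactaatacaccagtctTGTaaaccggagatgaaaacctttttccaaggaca
MT-TP: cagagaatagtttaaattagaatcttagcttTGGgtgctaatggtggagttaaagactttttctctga
MT-TP was at 49.0, 50.9 and 51.9 CPM in siControl, at 40.8, 46.0 and 42.3 CPM in siSLC25A1, at 39.6, 43.9 and 42.2 CPM in siACLY and at 38.5, 40.8 and 45.2 CPM in siACO1. All 9 knockdown libraries lay below the 3 shared controls, with log2 fold changes of -0.23 (adjusted p 0.00601), -0.27 (adjusted p 0.00058) and -0.28 (adjusted p 0.000404).

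MT-TG, the glycine tRNA, was at 3.49, 4.08 and 4.00 CPM in siControl and at 4.88, 5.80 and 5.22 CPM in siSLC25A1, all above (log2 fold change 0.46, SE 0.14, adjusted p 0.0225). The messenger on its 5′ side, MT-CO3, was lower in the same libraries. The call of MT-TG was lost without siControl replicate 1 or siSLC25A1 replicate 2 or 3, with adjusted p up to 0.116. MT-TT, the threonine tRNA, was at 3.68, 4.55 and 4.00 CPM in siControl and at 2.72, 3.65 and 2.04 CPM in siACLY, all below (log2 fold change -0.55, SE 0.17, adjusted p 0.0105), and that call was lost without siControl replicate 2 or siACLY replicate 3 (adjusted p up to 0.0814). In siSLC25A1 it was at 4.81, 4.15 and 5.06 CPM and higher than in siACLY (log2 fold change 0.74, adjusted p 0.000949). The other 16 tested tRNAs were not called against siControl in any knockdown.

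The nuclear genes that copy, cut, protect and modify these transcripts were examined as lists. Over the 5 lists for transcription, replication, cleavage, stability and modification and a list of biogenesis regulators, 71 genes were tested. In siSLC25A1 10 of the 71 were called (1 higher and 9 lower, 14.1% against 19.6% of all tested genes), with a median log2 fold change of -0.02. In siACLY 25 were called (4 higher and 21 lower, 35.2% against 36.7%), with a median of -0.08. In siACO1 38 were called (5 higher and 33 lower, 53.5% against 37.1%), with a median of -0.14 against 0.006 for all tested genes. The median over all tested genes was -0.004 in siSLC25A1 and 0.008 in siACLY. Over all tested genes 9.27%, 18.3% and 19.3% were lower in siSLC25A1, siACLY and siACO1, and 10.3%, 18.4% and 17.8% higher.

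Of the 10 transcription genes 0 were higher in any knockdown, and 2, 3 and 5 were lower in siSLC25A1, siACLY and siACO1 (20%, 30% and 50%, against 9.27%, 18.3% and 19.3% of all tested genes lower and 19.6%, 36.7% and 37.1% called in either direction). POLRMT, the polymerase itself, had log2 fold changes of -0.14 (adjusted p 0.0292), -0.43 (2.3e-08) and -0.33 (2.28e-06). TFAM, which bends promoter DNA and packages the genome, was lower in siACLY (-0.24, adjusted p 6e-05) and siACO1 (-0.19, adjusted p 0.00096) and had -0.05 in siSLC25A1, which did not pass. TFB2M, which opens the promoter, had -0.10, -0.05 and -0.14, none past the threshold. The largest changes were those of TOP1MT, a topoisomerase, in siSLC25A1 (-0.23), of POLRMT in siACLY and of MTERF3, a repressor of mitochondrial transcription, in siACO1 (-0.42).

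Of the 9 genes for stability, tailing and decay 1, 4 and 6 were lower in siSLC25A1, siACLY and siACO1, and 0 were higher (11.1%, 44.4% and 66.7% called, against 19.6%, 36.7% and 37.1% of all tested genes). LRPPRC, which binds and protects the messengers, was lower in siACLY (log2 fold change -0.15, adjusted p 0.00251) and siACO1 (-0.45, adjusted p 2.7e-10) and had -0.09 in siSLC25A1, not past the threshold. SLIRP, its partner, had -0.34, -0.11 and -0.14 and was not called. The degradosome subunits PNPT1, an exonuclease, and SUPV3L1, a helicase, were both lower in siACO1 (-0.24, adjusted p 0.000173, and -0.25, adjusted p 6.6e-05), and PNPT1 was lower in siACLY (-0.26, adjusted p 7.91e-05). GRSF1, an RNA-binding protein of mitochondrial RNA granules, had the largest called change in siSLC25A1 (-0.13) and ENDOG, a nuclease, in siACO1 (-0.73).

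Of the 12 cleavage genes 2, 4 and 5 were lower in siSLC25A1, siACLY and siACO1 and 0, 0 and 2 higher (16.7%, 33.3% and 58.3% called, against 19.6%, 36.7% and 37.1% of all tested genes). FASTKD5, needed to free messengers that no tRNA flanks, led in siSLC25A1 (-0.23) and siACLY (-0.51), and PRORP, the nuclease that cuts the 5′ ends of tRNAs, in siACO1 (-0.45). Of the 21 tested modification genes 2, 5 and 10 were lower and 0, 2 and 1 higher (9.52%, 33.3% and 52.4% called). TRUB2, a pseudouridine synthase, fell from 72.4 ± 2.28 to 33.8 ± 1.37 CPM (SD, n = 3) in siACO1 (log2 fold change -1.09, adjusted p 6.12e-16), and GTPBP3, a tRNA-modifying enzyme, led in siSLC25A1 (-0.30) and siACLY (-0.71). Of the 13 tested replication genes 0, 3 and 3 were lower and 1, 2 and 2 higher (7.69%, 38.5% and 38.5% called), led by LIG3, a DNA ligase, in siSLC25A1 (0.13), EXOG, a nuclease, in siACLY (0.48) and TWNK, the replicative helicase, in siACO1 (-0.38). Among the 6 tested biogenesis regulators 2, 2 and 4 were lower and 0 higher (33.3%, 33.3% and 66.7% called), with PPARGC1B, a coactivator, leading in all 3 knockdowns (-0.25, -0.55 and -0.51).

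The respiratory chain also needs subunits from nuclear genes, of which 70 were tested. In siSLC25A1 15 were lower and 0 higher (21.4% called against 19.6% of all tested genes), with a median log2 fold change of -0.13. In siACLY 28 were lower and 1 higher (41.4% against 36.7%), with a median of -0.16. In siACO1 18 were lower and 4 higher (31.4% against 37.1%), with a median of -0.06. Over all tested genes 9.27%, 18.3% and 19.3% were lower in siSLC25A1, siACLY and siACO1, and 10.3%, 18.4% and 17.8% higher. The medians over all tested genes were -0.004, 0.008 and 0.006. For complex I 9, 11 and 8 of 34 were lower and 0, 1 and 1 higher (26.5%, 35.3% and 26.5% called), led by NDUFA5 in siSLC25A1 (-0.28), NDUFC1 in siACLY (-0.63) and NDUFA13 in siACO1 (-0.45). For complex III 0, 4 and 3 of 9 were lower and 0, 0 and 1 higher (0%, 44.4% and 44.4% called), led by UQCRH in siACLY (-0.32) and CYC1, cytochrome c1, in siACO1 (-0.28).

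For complex IV 2, 7 and 4 of 10 nuclear subunits were lower and 0, 0 and 1 higher (20%, 70% and 50% called, against 19.6%, 36.7% and 37.1% of all tested genes). COX7B led in siSLC25A1 (-0.25) and siACLY (-0.27) and COX4I1 in siACO1 (-0.29). For complex V 4, 6 and 3 of 17 were lower and 0, 0 and 1 higher (23.5%, 35.3% and 23.5% called), led by ATP5MC2, a gene of the c-ring, in siSLC25A1 (-0.24) and by ATP5F1D in siACLY (-0.33) and siACO1 (-0.50).

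Nuclear copies of the mitochondrial genes were read as a check of where counts went. Of 404 such genes by symbol 67 had any count, and 4 had a mean of at least 1 CPM. MTATP6P1 (chr1:633696-634376) was at 161 to 329 CPM over the 12 libraries, MTCO1P12 at 35.4 to 58.9, MTND2P28 at 5.83 to 9.89 and MTND4P12 at 3.10 to 7.74 CPM. None of the 4 was called against siControl. In siSLC25A1, where MT-ATP6 was lower, MTATP6P1 was at 168, 196 and 161 CPM against 271, 201 and 261 CPM in siControl, which did not overlap (log2 fold change -0.48, adjusted p 0.251). Its counts were 4.09% to 7.62% of those of MT-ATP6 and 179% to 246% of those of MT-ATP8 in the same library, while those of MTCO1P12 were 0.289% to 0.453% of MT-CO1 and those of MTND2P28 0.204% to 0.333% of MT-ND2. How reads shared with these copies were assigned was not tested.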

How the data were processed

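Poly(A) RNA of 12 libraries was sequenced. The authors deposited 1 table of raw counts per gene (70116 rows), not normalized, as its headers and values show. The submitters' processing notes name CASAVA, FastQC, Trim Galore, STAR 2.7.0e, DESeq2 and the builds GRCh38 and GRCm39. The counting tool, annotation and strand setting are not given in the sources used here. A table of gene names matched 62700 rows (89.4%). Coordinates and sequences come from GENCODE release 29 (GRCh38), not necessarily the annotation counted.

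Counts were filtered with edgeR 4.0.16 filterByExpr (16197 genes kept), scaled by TMM (trimmed mean of M values) and fitted over all 12 libraries and 4 groups with the robust quasi-likelihood model (8 residual degrees of freedom, R 4.3.3). P-values are two-sided and adjusted by Benjamini-Hochberg over all genes tested, with calls under 0.05. Levels are TMM-scaled CPM, and per kilobase where genes are compared. Low counts limit the precision of the tRNAs. The procedure was tested on simulated data, with changes larger than any called in a messenger. That test does not show how often changes of the size reported here would be detected.

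All 37 genes were accounted for, and every messenger and rRNA was named. A tRNA was named with values where called against siControl, and MT-TC, MT-TN and MT-TY were added after their levels were seen. Of each list, the called gene with the largest change was named, plus POLRMT, TFAM, TFB2M, LRPPRC, SLIRP, PNPT1 and SUPV3L1. The members and lists were chosen with earlier results of these data known. Alternatives were DESeq2 1.42.0, its size factors, library totals, scaling without mitochondrial genes, other count filters, a replicate block and leaving out each library.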

Additional observations from a re-analysis of the deposited data

How the results depend on the processing

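Called mitochondrial genes were counted again under 19 alternatives, 12 of which left out 1 library. In siACO1 against siControl, 3 genes were called. The count was 5 with library totals in place of TMM, and 6 with no filter on low counts or with a replicate block. In siSLC25A1 and siACLY the counts of 6 and 8 became 6 and 7 with library totals, and 8 and 12 with no filter. The labels do not say whether replicate numbers pair the libraries, and correlations between so few libraries cannot settle it. Over 18 same-numbered pairs the correlation of deviations ran from -0.034 to 0.0672, and over the other pairs from -0.0719 to 0.0708. Of 12 libraries, 6 correlated best with their own number. With the block the other counts were 8 in siSLC25A1 and 10 in siACLY, against 6 and 8. Leaving out 1 library at a time gave 3 to 9 genes in siSLC25A1, 6 to 10 in siACLY and 3 to 6 in siACO1 against siControl. It gave 5 to 12 between siSLC25A1 and siACLY, 7 to 12 between siSLC25A1 and siACO1 and 5 to 9 between siACLY and siACO1. With siACO1 against siControl, the count was 5 without siControl replicate 1, siSLC25A1 replicate 1 or siSLC25A1 replicate 2. Over 54 combinations of a named member and a comparison with siControl, 12 of the 17 called kept their call in all 19 alternatives, 25 of the 37 not called stayed so, and 0 reversed. With the replicate block MT-RNR2 (adjusted p 0.0191) and MT-ATP8 (0.0220) in siSLC25A1, MT-ND6 in siACLY (0.00107) and MT-ND5 in siACO1 (0.0258) were also called. Library totals moved the median log2 fold change of all genes to 0.051 in siACLY and 0.055 in siACO1. Of 30 list counts, 18 moved by over 1.5 times in at least 1 alternative. The same alternatives were applied to single genes between knockdowns after their values were seen. The causes were not tested. Where a tRNA had few counts, depth limits what could be detected.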
